A study of Mus musculus with 305 samples.

Results

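The ventral tegmental area (VTA), the midbrain site of the dopamine neurons that project to the nucleus accumbens and prefrontal cortex, was examined 24 h after the last session of heroin self-administration. The members are the 19 VTA libraries of the 24 h mice, of 51 VTA libraries in a series of 51 mice and 6 brain regions. There were 11 from mice that took heroin intravenously for 15 d (H24) and 8 from mice that took saline for 15 d (S24), both sampled after 24 h of withdrawal and each library coming from 1 mouse. All animals were male wild-type Mus musculus, and strain and age are not given in the sources used here. Another 4 groups of mice were taken at 30 d of withdrawal and enter only where stated. RNA was taken from bulk tissue as strand-specific, ribosomal RNA-depleted libraries, so a lower level of a gene can mean fewer cells of a type or less RNA per cell, and these cannot be told apart. Levels are in CPM, read counts scaled to the library total, here corrected for library composition by TMM factors. Differences are log2 (H24 minus S24), with an SE or a 95% confidence interval from edgeR's quasi-likelihood model fitted to all genes.

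Heroin is converted to morphine, which acts at the mu opioid receptor. In the VTA this receptor sits mainly on GABA neurons that inhibit dopamine cells, and its activation releases dopamine neurons from that inhibition. Glutamate neurons lie among the dopamine and GABA cells, and the dorsal raphe, the red nucleus and the ventral surface of the brain with its meninges lie close by.

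The libraries held the defining transcripts of the VTA in every animal. Th, tyrosine hydroxylase of dopamine synthesis, spanned 131.8 to 948.6 CPM in H24 (median 512.2) and 153.5 to 1065 CPM in S24 (median 592.4). Slc6a3, the dopamine transporter, spanned 405.9 to 2491 CPM in H24 (median 1296) and 374.4 to 3182 CPM in S24 (median 1509). The range of dopamine content was thus wide within each group, and the groups overlapped over almost all of it. Other transcripts were those of cell types outside the VTA. Tph2, the tryptophan hydroxylase of serotonin neurons, exceeded 10 CPM in 7 of 11 H24 and 5 of 8 S24 libraries and reached 139.4 CPM in S24 mouse 41. Gh, the growth hormone of the anterior pituitary, exceeded 10 CPM in 4 H24 and 4 S24 libraries, was at 0 in 7 of the 19, and reached 524.7 CPM in S24 mouse 44, whose title carries a library code out of sequence with the other 24 h VTA libraries and which was kept as labelled. Other regions of the 24 h mice held Gh as well. In CPM without TMM factors, it exceeded 10 in 6 of 18 basolateral amygdala and 6 of 19 ventral hippocampus libraries. In nucleus accumbens, prefrontal cortex and dorsal striatum it did so in 0 of 19 each, and the source of Gh was not tested. Pomc, the precursor of beta-endorphin made in the pituitary and arcuate nucleus, was highest in H24 mouse 43 at 146.6 CPM against a group median of 1.7 CPM. Slc17a7, the vesicular glutamate transporter of cortical and hippocampal neurons, stood at 344.9 CPM in S24 mouse 37 and at 117.8 CPM in H24 mouse 45, against group medians of 7.22 and 4.56 CPM.

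**Figure D1:**
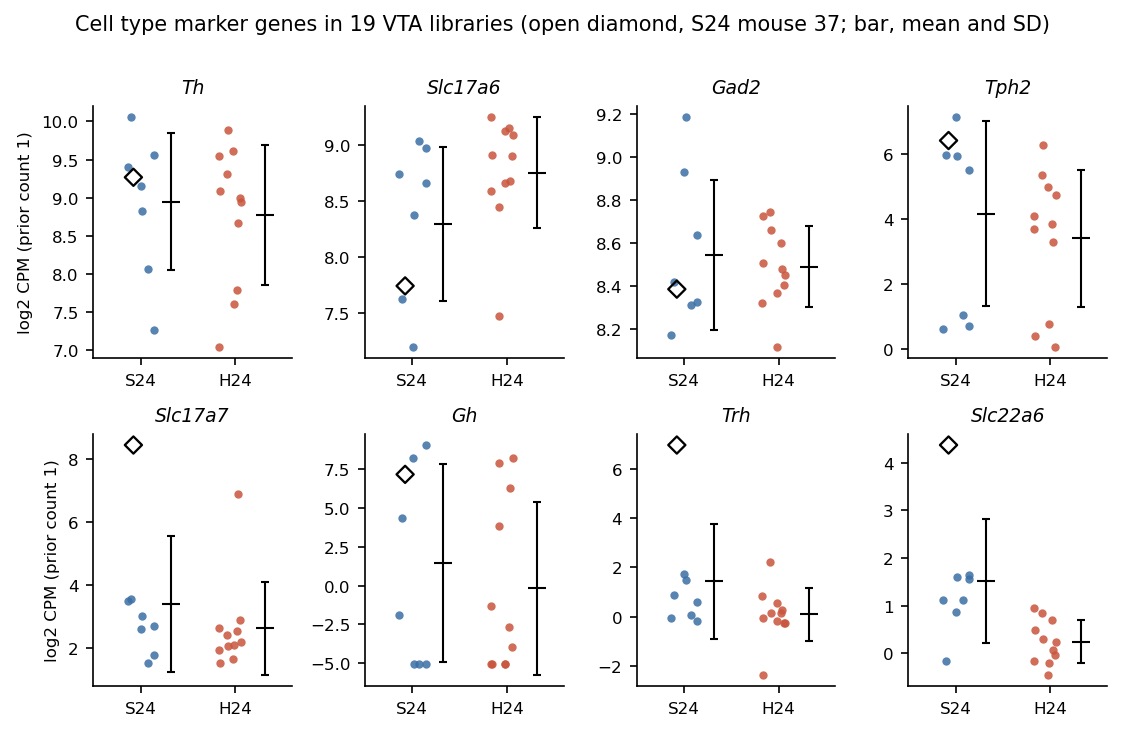
Level of 8 marker genes in each VTA library (log2 CPM with a prior count of 1), by group, with S24 mouse 37 as an open diamond and the group mean and SD as a bar. Th, Tph2 and Gh spread widely in both groups, while Trh, Slc22a6 and Slc17a7 are set apart by mouse 37, which has 123.8, 20.7 and 344.9 CPM.

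S24 mouse 37 stood apart from the rest. It had 123.8 CPM of Trh, the precursor of thyrotropin-releasing hormone, where the other 7 S24 libraries had 0.867 to 3.32 CPM. Its mean log2 CPM over 16 meningeal fibroblast genes was 4.18, against 1.603 to 2.146 in the other S24 libraries and 1.09 to 1.89 in H24. Its oligodendrocyte score was the lowest of the group at 7.93. The median of its rank correlations with the rest was 0.9745, the lowest, and the best library reached 0.9863. The libraries held 23.42 to 45.92 M counts each (median 33.13 M), and the exact two-sided permutation p for a difference between groups in total, mitochondrial share and share of the 10 highest genes was 0.337, 0.732 and 0.698 over 75582 arrangements, each 0.732 after adjustment over the 3. Most VTA results that this library touches are given with and without it, and the genes compared between regions only with it.

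No gene passed an adjusted p under 0.05 in VTA. Of 18370 genes tested, 0 were called (0%), and 757 (4.12%) had an unadjusted p under 0.05, 1.54% of genes being higher and 2.58% lower in H24. Without mouse 37, 0 of 18415 were called (0%), and 565 (3.07%) had an unadjusted p under 0.05, 1.41% higher and 1.66% lower. Of all genes, 49.7% lay above and 50.3% below 0 with all libraries, and 51.1% and 48.9% without mouse 37, which is the background for the counts of higher and lower list members. DESeq2 (35886 genes) and limma voom (18370 genes) also called 0, with 1212 and 817 at an unadjusted p under 0.05. Every gene had overlapping groups (0% without overlap in either direction). The genes below are therefore described by their values, and none of their differences passed the test. Their adjusted p was 0.97 to 1.00 with all libraries and 1.00 without mouse 37.

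Of the 755 genes at an unadjusted p under 0.05 that were tested in both fits, 375 (49.7%) were also there without mouse 37, making 66.8% of the 561 found then, and 15 changed sign. The median difference over all genes was -0.000802 with all libraries and 0.00248 without mouse 37.

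**Figure D2:**
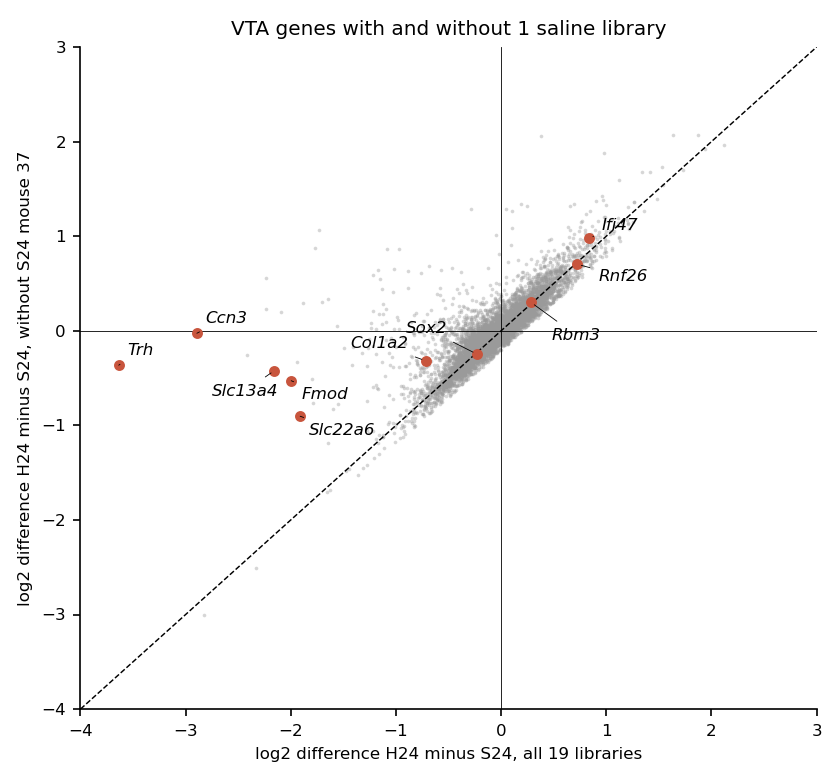
Log2 difference (H24 minus S24) of every gene tested in both fits, with all 19 libraries (horizontal axis) and without S24 mouse 37 (vertical axis); the dashed line marks equal values. Trh, Ccn3, Slc13a4 and Fmod move from between -3.64 and -2.0 to between -0.53 and -0.03, while Sox2, Rbm3, Rnf26 and Ifi47 lie close to the line.

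The opioid receptors and peptides are the direct targets and natural ligands of the system heroin acts on. Oprm1 (chr10:6758506-7038198, GRCm38), the mu receptor, spanned 10.7 to 17.1 CPM in H24 (median 13.2) and 12.8 to 19.9 CPM in S24 (median 15.7). The highest 2 libraries were saline and the lowest 4 were heroin, and the rest overlapped. The means were 13.7 ± 1.89 CPM (SD, n = 11) and 15.9 ± 2.57 CPM (SD, n = 8), a difference of -0.22 (SE 0.0975, interval -0.42 to -0.02; unadjusted p = 0.0347, adjusted p = 0.97). Without mouse 37 it was -0.21 (interval -0.42 to 0.00), and with the dopamine neuron score as a covariate -0.22. Oprl1, the nociceptin receptor, was the most tightly measured, at 110.8 to 129.7 CPM in H24 and 104.7 to 138.6 CPM in S24, and differed by 0.02 (interval -0.08 to 0.13). Oprk1, the kappa receptor, differed by -0.06 with a wide interval of -0.65 to 0.53, and Oprd1, the delta receptor, by 0.07 (-0.37 to 0.51). Oprk1 spanned 10.9 to 65.7 CPM in H24 (median 37.7) and 15.3 to 65.9 CPM in S24 (median 37.5), and the groups overlapped almost throughout. Among the peptide precursors, Penk (enkephalin) differed by -0.09 (-0.34 to 0.16), Pdyn (dynorphin), near 2 CPM or less in most libraries, by 0.03 (-0.43 to 0.49), and Pnoc (nociceptin) by -0.34 (-0.70 to 0.01). Pomc had the widest interval of these, -1.29 to 2.82, with 2 H24 and 3 S24 libraries above 10 CPM. Of the 16 genes of the list tested, 6 were higher and 10 lower in H24, 1 of them (Oprm1) with an unadjusted p under 0.05, and the list's median was -0.031, against -0.000802 over all genes.

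The genes that define dopamine neurons had negative but imprecise differences. Th differed by -0.16 (interval -0.84 to 0.53), Slc6a3 by -0.11 (-0.81 to 0.58), Slc18a2, the vesicular monoamine transporter, by -0.09 (-0.79 to 0.61), and Ddc, aromatic amino acid decarboxylase, by -0.15 (-0.80 to 0.50). Drd2, the autoreceptor that limits dopamine cell firing, differed by -0.07 (-0.61 to 0.48). Kcnj6, the GIRK channel subunit through which that receptor acts, differed by -0.08 (-0.41 to 0.25). The 23 tested genes of the dopamine neuron list had a median of -0.09, 6 higher and 17 lower, none at an unadjusted p under 0.05. When the mean of that list entered the model as a covariate, Th differed by -0.05 and Slc6a3 by 0.02; since both genes are in the score, this describes their level relative to the other dopamine genes. Glutamate neurons were represented by Slc17a6, the vesicular glutamate transporter of subcortical neurons. It spanned 178.2 to 607.5 CPM in H24 (median 479.0) and 147.2 to 524.3 CPM in S24 (median 368.4), so the 4 highest libraries were heroin, and it differed by 0.39 (-0.07 to 0.85; unadjusted p = 0.0912), with 10 of 11 H24 libraries above the S24 mean. Without mouse 37, whose 214.5 CPM was among the lowest, it differed by 0.31 (-0.14 to 0.77). The GABA genes Gad2, glutamate decarboxylase, and Slc32a1, the vesicular GABA transporter, differed by -0.08 (-0.32 to 0.15) and -0.14 (-0.48 to 0.19). Cck, a peptide of many VTA dopamine cells and also of cortical neurons, went from -0.32 (-1.05 to 0.40) to 0.07 (-0.57 to 0.72) without mouse 37, which held 128.6 CPM.

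**Figure D3:**
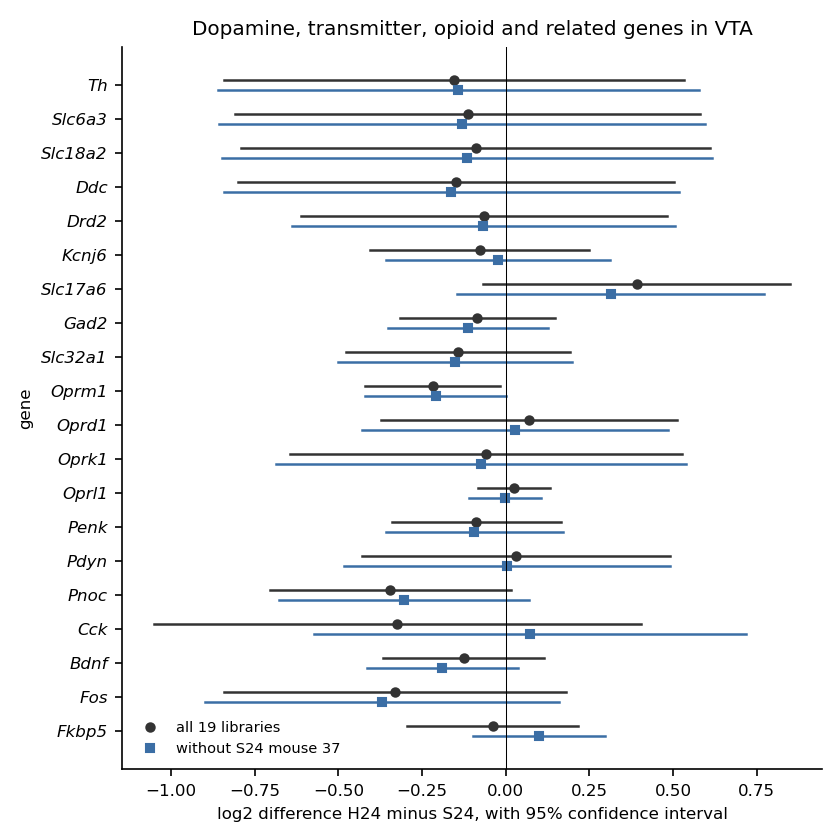
Log2 difference (H24 minus S24) and 95% confidence interval of 20 dopamine, transmitter, opioid, trophic and stress genes, with all 19 libraries (black circles) and without S24 mouse 37 (blue squares). With all libraries, every interval but that of Oprm1 (-0.42 to -0.02) includes 0, and the intervals of the dopamine genes are wider than that of Oprl1 (-0.08 to 0.13).

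The higher genes with the smallest p were of modest size. Rbm3 (chrX:8138975-8145880), an RNA-binding protein induced by mild cooling, spanned 37.6 to 60.6 CPM in H24 (median 47.9) and 37.4 to 43.3 CPM in S24 (median 39.4). Here 8 of 11 heroin libraries lay above every saline library, and the saline libraries were close together. The difference was 0.28 (SE 0.077) and 0.30 (SE 0.0803) without mouse 37. Cirbp, its cold-inducible relative, differed by 0.17 (-0.03 to 0.37), with 9 of 11 H24 libraries above the saline mean. Gclm (chr3:122245557-122270732), the modifier subunit of the enzyme that starts glutathione synthesis, spanned 83.9 to 105.6 CPM in H24 (median 97.1) and 70.6 to 96.6 CPM in S24 (median 85.2). All 11 H24 libraries lay above the S24 mean of 83.2 CPM, and the difference was 0.22 (SE 0.0617) and 0.19 without mouse 37. Rnf26, an E3 ubiquitin ligase of the endoplasmic reticulum, was at a low level, 0.933 to 2.13 CPM in H24 (median 1.52) and 0.576 to 1.32 CPM in S24 (median 0.934), with 9 heroin libraries above all saline ones and a difference of 0.72 (SE 0.206). Lztfl1, a regulator of ciliary trafficking, differed by 0.25, H2-T22, a non-classical class I histocompatibility gene with close paralogs, by 0.25, R3hcc1 by 0.25 and Smim3 by 0.60. Without mouse 37 these 4 differed by 0.24, 0.26, 0.21 and 0.54, and Naaladl2 joined the leading genes at 0.51, 10 of 11 heroin libraries lying above all 7 saline libraries left. With all libraries Naaladl2 differed by 0.34 and 0 heroin libraries lay above every saline one. Mouse 37 held 6.07 CPM of it, against at most 5.90 CPM in H24.

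Of the lower genes named here, a first set held its size without mouse 37. In it, Sox2, Sox1 and Pgghg were among the 8 with the smallest p over all libraries. Cys1 and Xrcc2 were chosen from the fit without mouse 37, so the choice itself favoured their size there. Rsph1 was named as a member of the ependyma list. Sox2 (chr3:34650405-34652461), a transcription factor of neural progenitors that adult glia also carry, spanned 23.8 to 29.3 CPM in H24 (median 26.1) and 27.5 to 35.7 CPM in S24 (median 29.7). Of the heroin libraries, 9 of 11 lay below every saline library. The difference was -0.23 (SE 0.0599) and -0.25 (SE 0.0624) without mouse 37. Sox1, a relative in the same SOXB1 family, spanned 15.1 to 22.7 CPM in H24 (median 18.1) and 20.2 to 27.5 CPM in S24 (median 23.6) and differed by -0.30 (SE 0.0785) and -0.26. Its heroin libraries lay below all saline ones in 8 of 11 cases. Cys1, the ciliary protein cystin, spanned 6.9 to 9.21 CPM in H24 (median 8.19) and 8.65 to 12.1 CPM in S24 (median 9.63) and differed by -0.30 and -0.32. Pgghg, a glucosidase of collagen-linked sugars, differed by -0.57 and -0.53, and Xrcc2, a DNA repair gene, by -0.26 and -0.32. Rsph1, a radial spoke protein of motile cilia carried by ependyma, was low throughout, 0.233 to 1.11 CPM in H24 (median 0.864) and 0.926 to 1.65 CPM in S24 (median 1.41), with all 11 heroin libraries below the saline mean and differences of -0.71 and -0.68.

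The other set shrank without mouse 37, though Slc22a6 stayed among the 5 leading lower genes of that fit. Slc22a6, an organic anion transporter of the meninges, spanned 0.699 to 1.9 CPM in H24 (median 1.14) against 0.864 to 3.08 CPM in the other 7 S24 libraries and 20.7 CPM in mouse 37, and it went from -1.91 to -0.90 (interval -1.41 to -0.40). Fmod, a matrix proteoglycan, went from -2.0 to -0.53, Slc13a4, a sulfate transporter of the leptomeninges and choroid plexus, from -2.16 to -0.42, and Ccn3, a matricellular protein, from -2.89 to -0.03. Trh went from -3.64 to -0.36 (interval -1.21 to 0.48). A fit of all 6 VTA groups, mouse 37 included, called Trh alone, at -3.63 (adjusted p = 0.013). Of the 16 meningeal genes, 16 were lower in H24 (median -0.765, 11 at an unadjusted p under 0.05), and without mouse 37, 15 of 16 (median -0.171), 3 at an unadjusted p under 0.05, Slc22a6, Col1a2 and Islr. Col1a2, a collagen chain, spanned 9.05 to 12.4 CPM in H24 (median 11) against 11.1 to 17.4 CPM in the other 7 S24 libraries, so 6 of 11 heroin libraries lay below all saline ones, and it differed by -0.32 (interval -0.51 to -0.13) without mouse 37. Without mouse 37 and with the meningeal score as a covariate, 0 genes were called, with 531 of 18415 at an unadjusted p under 0.05. Slc22a6, Slc13a4 and Col1a2 are themselves in that score, so that fit cannot separate the part of meningeal tissue in their differences. That part was not tested in another way.

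**Figure D4:**
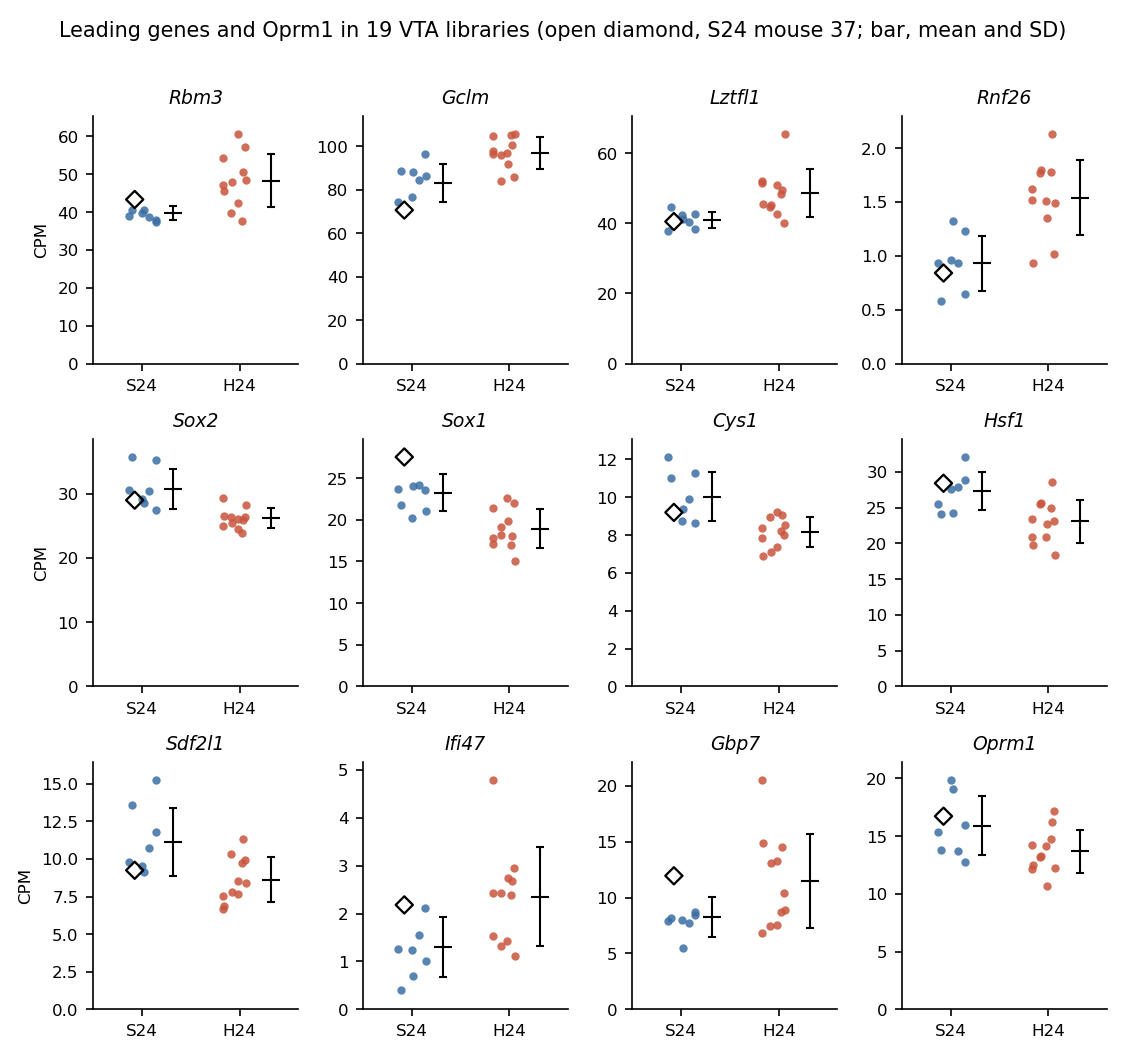
CPM of 12 genes in each library, by group, with S24 mouse 37 as an open diamond and the group mean and SD as a bar; axes start at 0. In Rbm3, 8 heroin libraries lie above every saline library and in Sox2, 9 lie below, while Gbp7 and Ifi47 spread widely among the heroin libraries.

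The chaperones and folding enzymes of the endoplasmic reticulum (ER) are induced together when unfolded protein accumulates, through factors that bind an element in their promoters. Of the 29 cold-inducible, heat shock and ER genes tested, 10 were higher and 19 lower in H24 (median -0.015, and -0.04 without mouse 37). Rbm3 was the single higher gene at an unadjusted p under 0.05, and 5 were lower, or 6 without mouse 37. Hsf1, the main heat shock transcription factor, spanned 18.4 to 28.5 CPM in H24 (median 23.2) and 24.2 to 32.1 CPM in S24 (median 27.7), 7 heroin libraries lying below all saline ones, and differed by -0.25 (SE 0.0785) and -0.24. Sdf2l1, an ER co-chaperone, spanned 6.71 to 11.3 CPM in H24 (median 8.4) and 9.14 to 15.2 CPM in S24 (median 10.3), again with 7 below, and differed by -0.37 (SE 0.119) and -0.40. Xbp1, a transcription factor of the unfolded protein response, differed by -0.15 and -0.16, and Pdia6, a disulfide isomerase, by -0.10 and -0.10. Hspa5, the abundant ER chaperone BiP, spanned 267.7 to 349.8 CPM in H24 (median 309.7) and 268.9 to 381.5 CPM in S24 (median 322.1) and differed by -0.09 and -0.13. Creld2, a secreted ER stress protein, differed by -0.19 and -0.25. Hsp90b1, in contrast, was at -0.01 and -0.03.

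A search for the ER stress element, CCAAT and CCACG with 9 bases between them, on either strand and within the 250 bases before the start, found it in 0.113% of 32851 RefSeq promoters (GRCm38.p6). It was found in 4 of the 22 genes of this list that matched a promoter by symbol: Creld2, Hspa5, Pdia6 and Hsp90b1. Those of Hspa5 and Creld2 are shown because they carry the element and are among the lower members (-0.09 and -0.19 with all libraries, -0.13 and -0.25 without mouse 37), a choice made after their values were seen; Hsp90b1 also holds the element. The match is printed in capitals, 5′ to 3′ on the gene's strand, and starts 65 bases before the gene's start in Hspa5 and is in the reverse orientation in Creld2. The intervals are chr2:34771840-34772089 (plus strand) and chr15:88819396-88819645 (plus strand).
Hspa5: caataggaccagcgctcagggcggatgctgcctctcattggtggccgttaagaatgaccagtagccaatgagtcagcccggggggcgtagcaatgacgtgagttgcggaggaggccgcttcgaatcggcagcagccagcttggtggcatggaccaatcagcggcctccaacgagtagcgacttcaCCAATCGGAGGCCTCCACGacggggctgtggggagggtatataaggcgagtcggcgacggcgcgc
Creld2: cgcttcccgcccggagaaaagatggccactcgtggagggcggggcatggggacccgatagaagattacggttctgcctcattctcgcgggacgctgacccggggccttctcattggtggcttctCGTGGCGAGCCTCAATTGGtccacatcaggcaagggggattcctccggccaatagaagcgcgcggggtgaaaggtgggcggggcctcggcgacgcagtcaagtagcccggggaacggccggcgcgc

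The interferon-induced GTPases of the Irg and Gbp families attack the vacuoles of pathogens inside cells, and interferons induce them through promoter elements that include a pair of GAAA with 2 bases between them. They were looked at after Ifi47 appeared among the leading genes without mouse 37, so they were chosen after their values were seen. All 15 tested had a positive difference (median 0.512), where 49.7% of all genes did, and 5 were higher at an unadjusted p under 0.05, where 1.54% of all genes were. Without mouse 37 the median was 0.632, and 10 were higher at an unadjusted p under 0.05, where 1.41% of all genes were. The heroin libraries fell into 2 separate sets on these genes. In mice 33, 39, 40, 42, 45 and 47, 14 or 15 of the 15 genes lay above their S24 median, and the mean log2 CPM of the 15 was 2.715 to 3.371. In the other 5 heroin mice, 2 to 5 of the 15 lay above it, and the mean was 1.492 to 1.685, within the saline range of 0.85 to 2.643, whose highest library was mouse 37. The high values were thus in 6 of the 11 heroin libraries, and what sets these 6 apart was not tested. These genes share regulation and, in part, sequence, so they are not independent of each other. Ifi47, an Irg GTPase, spanned 1.12 to 4.79 CPM in H24 (median 2.43) and 0.412 to 2.18 CPM in S24 (median 1.26), 7 heroin libraries lying above every saline one, and differed by 0.84 (SE 0.296) and 0.98 without mouse 37. Gbp7 spanned 6.87 to 20.5 CPM in H24 (median 10.4) and 5.46 to 11.9 CPM in S24 (median 8.07), with 5 heroin libraries above all saline ones and the others among them, and differed by 0.47 and 0.56. Gbp4 spanned 2.43 to 20.8 CPM in H24 (median 13.1; the same 6 mice at 13.1 CPM or more and the other 5 at 4.91 CPM or less) and 2.59 to 11.3 CPM in S24 (median 5.43) and differed by 0.81 and 1.01. Irgm2 spanned 4.77 to 18.4 CPM in H24 (median 13.7) and 4.24 to 11.8 CPM in S24 (median 7.32) and differed by 0.51 and 0.63. Psmb8, an interferon-induced proteasome subunit, differed by 0.64 and 0.76. Values of Tgtp1 and Tgtp2, and of the Gbp genes among themselves, are uncertain because near-identical copies can share reads. The wider interferon and inflammation list had 16 of 24 genes higher (median 0.113), with Tlr4, the receptor for bacterial lipopolysaccharide, lower by value at -0.54.

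That element was present, on either strand, in the 250 bases before the start in 2.98% of all 32851 promoters and in 9 of the 10 GTPases with a promoter in the table; Ifi47 was the one without it. The promoters of Igtp and Irgm2 show it in capitals, starting 34 and 64 bases before the start, at chr11:58199306-58199555 (plus strand) and chr11:58214727-58214976 (plus strand).
Igtp: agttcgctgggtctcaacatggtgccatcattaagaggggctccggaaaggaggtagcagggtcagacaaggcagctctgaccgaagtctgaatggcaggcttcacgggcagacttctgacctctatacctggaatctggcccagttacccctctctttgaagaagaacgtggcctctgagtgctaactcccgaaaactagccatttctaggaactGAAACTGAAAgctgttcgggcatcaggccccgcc
Irgm2: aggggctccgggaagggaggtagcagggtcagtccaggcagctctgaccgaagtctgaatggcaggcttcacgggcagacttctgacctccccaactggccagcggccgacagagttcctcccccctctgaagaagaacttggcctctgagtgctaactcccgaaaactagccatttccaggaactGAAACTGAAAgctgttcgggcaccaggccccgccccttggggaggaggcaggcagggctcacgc

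Among the 28 glutathione and antioxidant genes tested, 21 were higher and 7 lower (median 0.058). Only Gclm was higher at an unadjusted p under 0.05. Slc7a11, the cystine transporter that supplies glutathione synthesis, was lower at -0.46 (-0.84 to -0.08). Without mouse 37, which held 84.64 CPM of it, the difference was -0.29 with an interval that includes 0 (-0.62 to 0.05). Gclc, the catalytic partner of Gclm, differed by 0.09 (-0.04 to 0.22). The antioxidant element searched, TGAC and GC with 3 bases between them on either strand, is short and was present in 10.2% of all promoters, and in 8 of the 24 genes of this list with one. The promoter of Gclm holds it, in capitals, at chr3:122245307-122245556 (plus strand), in the reverse orientation.
Gclm: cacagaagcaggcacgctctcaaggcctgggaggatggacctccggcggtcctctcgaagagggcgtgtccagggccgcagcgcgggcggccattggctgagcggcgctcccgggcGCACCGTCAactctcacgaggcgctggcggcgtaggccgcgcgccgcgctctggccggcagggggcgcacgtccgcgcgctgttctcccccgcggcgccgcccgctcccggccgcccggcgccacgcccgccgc

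Astrocyte, microglia and oligodendrocyte precursor genes had mostly negative differences, none of which passed the test, while the oligodendrocyte list was split. Of the oligodendrocyte list, 8 of 15 were higher and 7 lower (median 0.007), and 5 and 10 without mouse 37 (median -0.052). Of the astrocyte list, 11 of 13 were lower (median -0.087), led by Gfap, an intermediate filament of astrocytes. Gfap spanned 13 to 58.4 CPM in H24 (median 29.5) and 18.4 to 115.8 CPM in S24 (median 42) and differed by -0.82 (-1.52 to -0.12) and -0.76 without mouse 37. Only 3 saline libraries, mice 50, 41 and 37 at 115.8, 106.8 and 74.4 CPM, lay above every heroin one. These 3 also had the highest Tph2 of S24, at 62.35, 139.4 and 84.51 CPM. Mouse 34, next at 60.5 CPM of Tph2, had only 28.97 CPM of Gfap, and a link between these genes was not tested. Of the microglia list, 13 of 14 were lower (median -0.107), Tmem119 by -0.22 (-0.42 to -0.02; -0.42 to 0.00 without mouse 37, unadjusted p = 0.0505) and Siglech, a sialic acid-binding lectin, by -0.24. Of the oligodendrocyte precursor list, 8 of 12 were lower (median -0.049). Gpr17, a receptor of differentiating precursors, spanned 41.9 to 64.3 CPM in H24 (median 54.7) and 44.9 to 77.3 CPM in S24 (median 65.8), 6 saline libraries lying above every heroin one, and differed by -0.21 (-0.38 to -0.03). Pdgfra, the growth factor receptor of precursors, differed by -0.14 (-0.26 to -0.01) and, without mouse 37, by -0.13 with an interval that includes 0 (-0.26 to 0.00; unadjusted p = 0.0563). Bmp4, low at 0.535 to 1.18 CPM in H24 (median 0.799), differed by -1.19 and -0.57. Genes of red blood cells went the other way, 8 of 11 higher (median 0.233), and 12 of 13 mitochondrially encoded genes were higher (median 0.152), none of either list at an unadjusted p under 0.05 with all libraries. Without mouse 37, 9 of 11 red blood cell genes were higher (median 0.255), 2 of them at an unadjusted p under 0.05, and 12 of 13 mitochondrially encoded genes (median 0.193), none at that level. By library, however, the groups lay close together on both lists. The mean log2 CPM of the mitochondrially encoded genes had a median of 6.32 in H24 and 6.29 in S24, with H24 mouse 43 highest at 7.66. That of the red blood cell list had a median of 3.97 in both groups, with H24 mouse 40 highest at 5.02.

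Activity and stress genes gave no called change. Fos, an immediate early gene induced by neuronal firing, spanned 3.44 to 19 CPM in H24 (median 7.93) and 6.92 to 15.4 CPM in S24 (median 11.7), with 5 heroin libraries below and 1 above all saline ones, and differed by -0.33 (-0.84 to 0.18). Of 29 immediate early genes, 23 were lower with all libraries (median -0.136) and 16 without mouse 37 (median -0.04). Egr3, which stood at 38.8 CPM in mouse 37 and at 0.452 to 2.31 CPM in the other 7 S24 libraries, went from -2.24 to 0.23. Bdnf, a growth factor, differed by -0.13 (-0.37 to 0.11), and Fkbp5, a glucocorticoid-induced chaperone, by -0.04 (-0.30 to 0.22). Of 21 clock genes, 9 were higher and 12 lower (median -0.032). Nfil3, a repressor with a daily rhythm, spanned 4.2 to 6.56 CPM in H24 (median 4.88) and 5.11 to 7.46 CPM in S24 (median 6.66), 6 heroin libraries lying below all saline ones, and differed by -0.32 and -0.30. Npas2, a partner of Bmal1, went from -0.63 (-1.10 to -0.17) to -0.37 without mouse 37, with an interval that includes 0 (-0.75 to 0.02). The time of day of each dissection is not given in the sources used here.

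**Figure D5:**
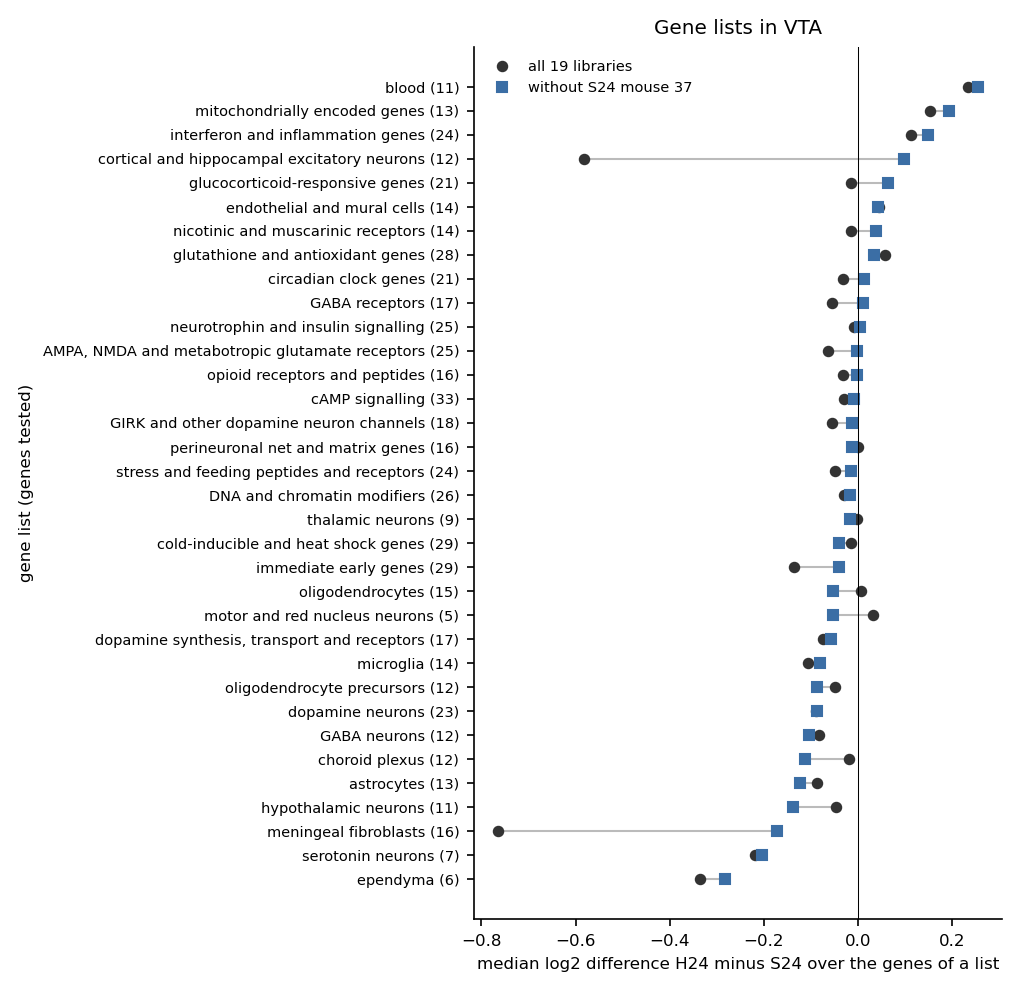
Median log2 difference (H24 minus S24) over the tested genes of each of 34 lists (number tested in brackets), with all 19 libraries (black circles) and without S24 mouse 37 (blue squares). The meningeal and cortical lists move from -0.765 and -0.583 to -0.171 and 0.098, and the other lists lie between about -0.34 and 0.26 in both.

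The same 19 mice gave nucleus accumbens (NAc) and prefrontal cortex (PFC) libraries, and the H24 minus S24 difference in VTA was tested against that in each, with the mouse as a block. Against NAc, 0 of 20456 genes were called (0%), with 830 (4.06%) at an unadjusted p under 0.05, and against PFC 0 of 20438 (0%), with 570 (2.79%). Without mouse 37 in both regions, 0 were called against NAc, with 1131 of 20509 at an unadjusted p under 0.05. Against PFC 0 were called, with 496 of 20657. The leading VTA genes are therefore not shown to be particular to VTA. The values of single genes that follow include mouse 37. Each p is for the difference between regions estimated with the mouse as block, which need not equal the gap between the values printed. Rbm3 differed by 0.09 in NAc and 0.07 in PFC, against 0.28 in VTA (unadjusted p of the difference 0.0592 and 0.0176). Gclm differed by 0.04 and -0.04 in the 2 regions (unadjusted p 0.0341 and 0.00934), and Sox2 by 0.02 and -0.08 (unadjusted p 0.0358 and 0.124). Sox1 differed by -0.28 in NAc, close to its -0.30 in VTA, and by 0.19 in PFC (unadjusted p 0.879 and 0.031). Of the interferon-induced GTPases, Gbp3 differed by 0.42 in NAc and 0.20 in PFC, against 0.53 in VTA. Its blocked estimates were -0.02 for VTA minus NAc and 0.18 for VTA minus PFC (unadjusted p 0.93 and 0.471). Ifi47 differed by 0.30 in NAc and -0.07 in PFC, against 0.84 in VTA. Its blocked estimates were 0.434 for VTA minus NAc and 1.004 for VTA minus PFC (unadjusted p 0.33 and 0.0157). Oprm1 had the same sign in all 3 regions, -0.14 in NAc and -0.23 in PFC. Adjusted p was 1.00 for each of these differences between regions.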

How the data were processed

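Total RNA of VTA tissue (Qiagen RNEasy Micro) went into stranded TruSeq Gold libraries without ribosomal RNA, read as pairs of 150 bases, per the labels' protocols. FastQC, HISAT2, SAMtools and HTSeq with build mm10 were used, per the submitters' processing notes; versions, settings and annotation are not given in the sources used here. The values are the raw counts per gene that the authors deposited in 1 table of 52636 genes; 0 value columns lacked a sample, and the deposited CPM tables were not used. Symbols and coordinates are from GENCODE M21 (GRCm38), and promoters from RefSeq (GRCm38.p6).

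Columns were matched to samples by the code in each title and groups were taken from the labels. Genes passing edgeR's filter (minimum count 10) were scaled by TMM and tested by quasi-likelihood in edgeR 4.0.16 (R 4.3.3), with Benjamini-Hochberg adjustment over all genes and a threshold of 0.05; log2 values in figures carry a prior count of 1. DESeq2 1.42.0, limma 3.58.1 with quality weights, other scalings and filters, covariates and leaving out each of the 19 libraries were alternatives. The models were tested on simulated data. Differences between regions used the mouse as a replicate block, since the labels give the same mouse numbers in each region; deviations of the same mouse had a median correlation of 0.0123 (NAc) and 0.0139 (PFC).

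The libraries, gene lists and alternatives were chosen with earlier results of these data known. Named genes are the 8 higher and 8 lower with the smallest p at 1 CPM or more and with a proper symbol, the 5 and 5 without mouse 37, a panel of 27 genes, up to 3 members of each of 34 lists at an unadjusted p under 0.05, and genes called in any fit, up to 5 a direction. Of the 8 higher, 1 is not reported here. Hcrt, of the panel, was below the filter (highest count 24). Other list members were named after their values were seen. Within groups, the chi-square of 83 pairs of libraries, divided by its degrees of freedom, was at least 12.3 where counting noise gives 1, so no library was taken as a duplicate. Totals of 23.42 to 45.92 M counts and a typical coefficient of variation between mice of 17.6% set the precision.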

Additional observations from a re-analysis of the deposited data

Results flagged for a closer look

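Each value was examined for a single S24 library far from the other 7, by the gap to its nearest neighbour relative to the range of the group, against Dixon's 95% critical value. Of the values examined, 24 (22%) were flagged, 21 of them by mouse 37. Chance flags about 1 in 20 groups, but several of these genes and lists were chosen because mouse 37 sets their value, so the share is no separate evidence about that library. The H24 group, with 11 libraries, was not examined in this way. Values are log2 CPM, or for lists the mean log2 CPM of their genes.

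Mouse 37 was highest for Trh (6.953), Ccn3 (7.3), Camk2a (9.088), a kinase of forebrain excitatory neurons, Egr3 (5.278), Fmod (5.559), Slc13a4 (5.402), Slc22a6 (4.374), Col1a2 (5.583), Bmp4 (2.71), Homer1 (6.399), a postsynaptic scaffold, Ncan (7.66), a matrix proteoglycan, Vtn (6.726), a pericyte transcript, Fkbp5 (5.24) and Naaladl2 (2.608). It was lowest for R3hcc1 (4.063) and Xrcc2 (3.258). Of the lists, it was highest for meningeal fibroblasts (4.184), cortical and hippocampal excitatory neurons (4.869), GABA receptors (6.282) and immediate early genes (3.347), and lowest for oligodendrocytes (7.926).

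The other flags came from mouse 41 for Penk (6.025), mouse 35 for Gpr17 (5.488), which was the lowest of its group, and mouse 34 for the motor and red nucleus list (3.191).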

How the results depend on the processing

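In VTA the number of genes called stayed at 0 with each of the 19 libraries left out in turn (0 to 0), with RLE scaling, without the count filter, at a minimum count of 50, with DESeq2 or limma voom, and with a score of meningeal, dopamine, oligodendrocyte or serotonin genes as covariate. The fit of all 6 VTA groups called 1, Trh. For the paired differences between regions, no replicate block also gave 0 against NAc and 0 against PFC; without the count filter 9 genes were called against NAc (Gh, mt-Rnr2, Prl, Dynll2, Yipf3, Slc6a4, mt-Rnr1, Tfip11, Nefm) and 4 against PFC (Hspd1-ps3, Gm11549, Npas2, Slc30a3), and the cause was not tested. For 72 named genes under 29 or 30 alternatives each, 57 of 2152 values, in 21 genes, had the other sign. Most were differences smaller than their SE, such as those of Cck, Fkbp5 and Oprl1, which changed sign without mouse 37. Of the 56 genes whose difference exceeded its SE, 6 changed sign in 13 values, and the cause was not tested. Without mouse 37 these were Camk2a (0.23), Gabrd (0.29) and Egr3 (0.23), whose values ran from -1.38 to 0.23, from -2.07 to 0.29 and from -3.27 to 0.23 as each library was left out; with DESeq2 Camk2a (0.23) and Gabrd (0.26); with voom Gabrd (0.055); with the meningeal covariate Trh (0.11), Ccn3 (0.35), Slc13a4 (0.14), Camk2a (0.51), Gabrd (0.71) and Egr3 (0.63); and without mouse 37 and H24 mouse 45, chosen after seeing the data, Gabrd (0.21). Depth set a counting CV of 11.4% to 18.9% for Rnf26 in H24 (28 to 77 counts), where its CPM had a CV of 22.6%, and of 6.64% to 16.4% for Ifi47, where its CPM had a CV of 44%.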
